A study of Mus musculus with 4 samples.

Results

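The ATP-binding cassette (ABC) genes examined here are the rows of the count table whose symbols run from *Abca* to *Abcg* followed by a number, and 50 of the 23337 genes counted met this rule. They were followed in medullary thymic epithelial cells (mTECs) sorted from the thymus of 4-week-old C57BL/6 mice, as CD45-EpCAM+UEA-1+Ly51- cells, and sequenced in 4 libraries. The 2 WT libraries came from mice without *Foxn1*-Cre. The 2 libraries labelled Sirt6-/- in the records, called the cKO-labelled libraries or *Sirt6* cKO 1 and 2 here, came from mice in which *Foxn1*-Cre, active in thymic epithelium, recombines floxed *Sirt6* alleles. Recombination in other cells of these mice is not described in the sources used here. Whether a library pooled several animals is not given in the sources used here, and the p-values measure the spread between these libraries, which may be technical. *Tap1*, *Tap2* and *Cftr* encode proteins of the same superfamily, but their symbols lie outside the rule and they were kept apart.

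ABC proteins bind and hydrolyze ATP, and most of them use it to move lipids, sterols, bile salts, drugs, peptides or metal compounds across a membrane. Subfamilies A and G are known mainly for lipid and sterol export, subfamily C for conjugates and for regulation of ion channels, and subfamily D for peroxisomes, whereas the proteins of subfamilies E and F lack membrane spans and act on ribosomes and translation. mTECs are known for promiscuous gene expression, in which they transcribe genes otherwise restricted to liver, testis, islets or other tissues and display the products to developing T cells.

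All 50 genes passed the filter on low counts and were tested with edgeR's quasi-likelihood test. The libraries held between 61102704 and 65907745 counts, of which the ABC genes took between 0.170% and 0.198%. Between 46 and 50 of them had at least 1 count in a library. *Sirt6* itself had 622 and 755 counts in the WT libraries against 882 and 835 in the cKO-labelled libraries (log2 fold change 0.37, standard error 0.32), a count over the whole gene that cannot show the floxed exons alone. The count over the whole gene was thus not lower, which leaves the deleted part unmeasured, and each direction given here rests on the labels. The paper reports that *Sirt6* was inactivated in these mice, from genotyping, western blot of cultured thymic epithelial cells and quantitative PCR of sorted cells. Of 18547 genes tested, 5.27% were higher and 3.32% were lower at an unadjusted p of 0.05, and 0.00539% (1 gene) passed an adjusted p of 0.05. Scaling by library size alone changed the balance of the calls over all genes, with 61.4% of them higher with TMM factors, 46.2% by library size and 48.4% with upper quartile factors. Markers of mTECs were counted in every library (8 of 8), at a summed 9389 to 9545 CPM (counts per 1000000 counts, scaled with TMM factors) in WT and 10455 to 10692 CPM in the cKO-labelled libraries. Most of this sum was *H2-Aa*, between 7123 and 8228 CPM in each library, which other antigen-presenting cells also express. At the unadjusted p, 3 of the 8 were higher, *Epcam*, *Aire* and *Cd80* (0.48, 0.65 and 0.94 on the log2 scale). The 1 marker below 0 was *Fezf2* (-0.20), at 672 and 690 CPM in WT against 386 and 803 CPM, and it did not pass. Markers of other cell types were present as well. Tuft cell markers summed to 572 and 664 CPM in WT against 326 and 324 CPM, with 4 of 8 lower at an unadjusted p of 0.05. Of these sums, *Gnb3* held 278 and 319 CPM in WT and 106 and 119 CPM in the other group. *Dclk1* and *Pou2f3* stood above 0 (0.36 and 0.24 on the log2 scale) and did not pass. Markers of macrophages and dendritic cells summed to 5290 and 3289 CPM in WT against 2418 and 2412 CPM, with 2 of 9 lower, *Lyz2* and *Cd68*. *Lyz2* alone held 4647 and 2815 CPM of these sums in WT and 1778 and 1906 CPM in the other group, while *Ptprc*, *Itgam* and *Siglech* stood above 0 (0.27, 0.57 and 0.20) and did not pass. Thymocyte markers summed to between 787 and 1128 CPM in WT and between 559 and 909 CPM in the other group, B cell markers to between 324 and 399 CPM in all 4 libraries, and 0 genes of either list passed. Markers of cortical epithelium summed to 694 and 651 CPM in WT against 977 and 673 CPM in *Sirt6* cKO 1 and 2. Of these markers, 3 of 8 were higher at the unadjusted p, while 4 of 8 stood below 0 and did not pass. Those of fibroblasts summed to 616 to 701 CPM (1 of 6 lower) and those of endothelium to 77.6 to 104 CPM (0 of 6). The B cell factor *Pax5* was at 0 counts in WT 1 and *Sirt6* cKO 2. In bulk samples, fewer cells of a type and less RNA per cell cannot be told apart, and the part of these cells in the results below was not tested.

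Most ABC genes were detected at low or moderate levels, and a few carried most of the family's RNA. On the scale of transcripts per 1000000 transcripts (TPM), which corrects for length, between 64.8% and 73.5% of the family's summed level belonged to its 10 leading genes, and that sum lay between 887 and 998 TPM. *Abcf2*, a soluble member, had the highest mean, at 147 and 124 TPM in WT and 119 and 164 TPM in the cKO-labelled libraries. *Abcg1*, which exports cholesterol to high-density lipoprotein, was the second, at 127, 107, 119 and 89.2 TPM in the same order. The ranges of these libraries overlap, so the order of the first 2 genes is not resolved. *Abce1*, the ribosome recycling factor, followed at 93.1, 77.0, 102 and 97.8 TPM, *Abcf1* at 76.5, 74.7, 100.5 and 75.0 TPM and *Abcf3* at 69.3, 73.4, 65.6 and 67.9 TPM. *Abcc1*, an exporter of glutathione conjugates, stood at the sixth place with a mean of 48.6 TPM, below *Abcf3* in every library and overlapping *Abcg2*, whose highest library held 35.9 TPM against 30.4 TPM in the lowest of *Abcc1*. *Abcg2*, *Abcb8*, *Abcg5* and *Abcd4* completed the 10 with means from 27.5 down to 23.8 TPM, and their libraries overlap. At the other end, 16 genes had a mean under 2 TPM, and *Abca16* was the lowest at 0.0748 TPM.

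**Figure D1:**
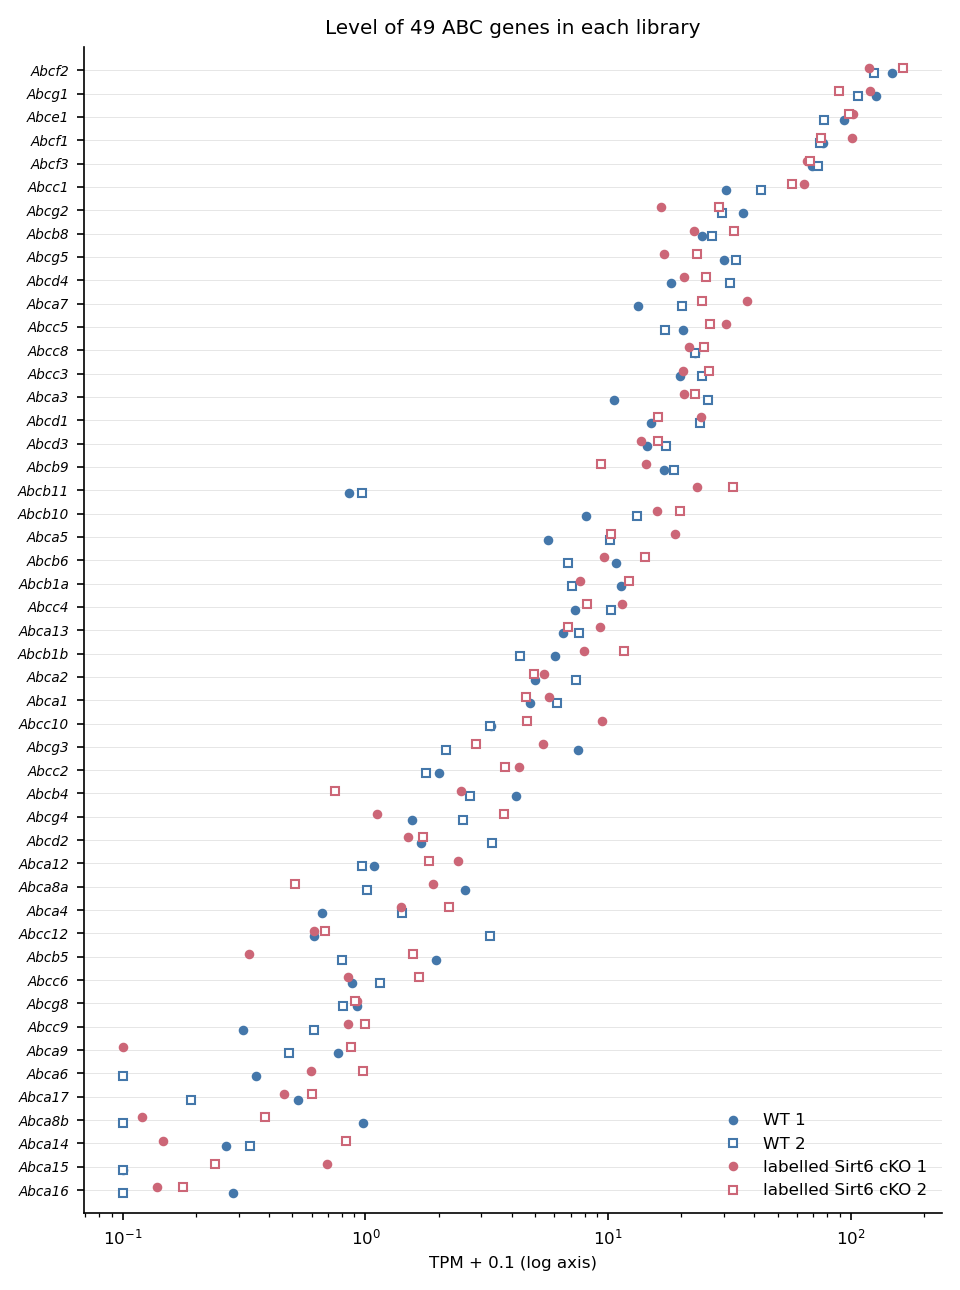
TPM of 49 of the 50 ABC genes (log axis, 0.1 added) in the 4 libraries, ordered by the mean; circles are replicate 1 and squares replicate 2, blue for WT and red for the cKO-labelled libraries. *Abcf2* and *Abcg1* lead the order, and *Abcb11* is the gene whose red and blue points lie farthest apart among those above 2 TPM.

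At an unadjusted p of 0.05, 8 of the 50 genes (16%) were higher in the cKO-labelled libraries, beside 5.27% of all genes tested, and 0 were lower, beside 3.32%, so that 8.58% of all genes were called in either direction. The 8 genes were *Abcb11*, *Abca15*, *Abcc1*, *Abcc2*, *Abcc5*, *Abca7*, *Abca12* and *Abcc10*. At an adjusted p of 0.05, edgeR passed 0 of the 50 genes and DESeq2 passed 1, *Abcb11*, beside 1.83% of all genes. With only the genes above 0.1 TPM in all 4 libraries, edgeR passed *Abcb11* too (adjusted p = 0.0291), within a range over all alternatives given with that gene. At the unadjusted p, DESeq2 gave 11 genes higher and 1 lower, beside 5.8% and 4.38% of all genes. The median log2 fold change over the 50 genes was 0.15, and that over all genes tested was -0.0047. Taking *Abca15* at its lower bound could not move the former, because that gene lies above the median either way. In 15 genes (30%) both cKO-labelled libraries lay above both WT libraries, beside 21.6% of all genes, and in 5 genes (10%) both lay below, beside 20.3%. The fold change was above 0 in 32 genes, or 64%, beside 49.6% of all genes, and below 0 in 18. With library size alone it was above 0 in 28 and below in 22. By subfamily, 3 of 16 genes of A, 1 of 10 of B and 4 of 10 of C were among the 8, with median log2 fold changes of 0.50, 0.28 and 0.52, and 0 of the 4, 1, 3 and 6 genes of D, E, F and G, where the medians were -0.097, 0.24, 0.067 and -0.20. All 8 genes were above WT under each alternative that tested them, but leaving out *Sirt6* cKO 1 left 1 of them, *Abcb11*, past the unadjusted p, and leaving out WT 1, WT 2 or *Sirt6* cKO 2 left 3, 4 and 5.

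**Figure D2:**
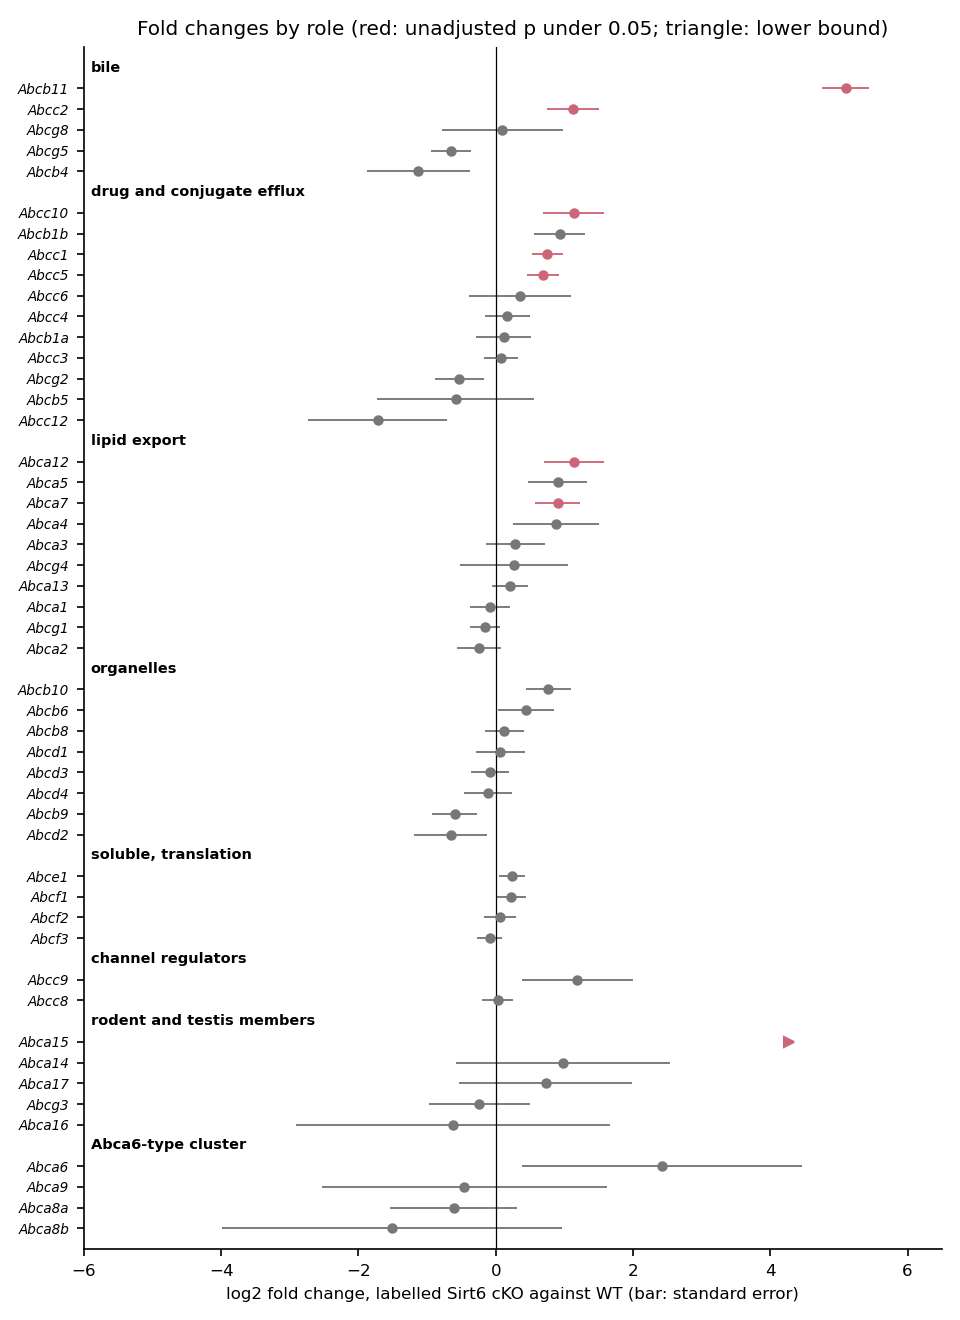
Log2 fold change of 49 of the 50 ABC genes between the cKO-labelled libraries and WT, with its standard error as a bar, grouped by role; red marks an unadjusted p under 0.05 and the triangle the lower bound for *Abca15*, which had 0 counts in WT. *Abcb11* stands at 5.10, and the genes of translation lie between -0.09 and 0.24.

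The genes of bile formation held the largest difference of the family among genes with counts in both groups. In hepatocytes, their products move bile salts, phospholipid, conjugates and sterols across the canalicular membrane. *Abcb11*, the bile salt export pump, had 113 and 122 counts in the WT libraries against 3124 and 4685 in the cKO-labelled libraries. The groups lie far apart, and each pair of replicates lies close together by comparison. The mean rose from 1.82 ± 0.135 to 62.4 ± 15.05 CPM (SD over 2 libraries each), a 34.2-fold difference or 5.10 on the log2 scale (standard error 0.34). The unadjusted p was 1.39e-05, the third smallest of all genes tested (rank 3), and after Benjamini-Hochberg adjustment over all genes it was 0.0862 in edgeR. The log2 fold change stayed between 3.97 and 5.33 over all alternatives, whereas the adjusted p ranged from 4.5e-44 with DESeq2 to 0.492 with the replicate number as a block. By TPM, *Abcb11* moved from place 41 of the 50 genes in WT, with 0.0855% and 0.0965% of the family's summed TPM, to place 9, with 2.31% and 3.30%.

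In GRCm38, on which mm10 is based, the gene lies on chromosome 2 from 69238282 to 69342616 on the minus strand. Its exons overlap those of the annotated antisense gene *Gm13613* by 136 bases, and 1.79% of the 50-base words of its longest transcript occur in that gene. The region around the start of transcription is shown for *Abcb11* and *Abcc2*, the genes of this group that rose. They were picked with their values in view, because both carry in it the hexamer AGGTCA, a motif of nuclear receptors. Each stretch holds 250 bases before the start and 50 after it, read 5′ to 3′ on the strand of the gene from RefSeq on GRCm38.p6. Capitals mark AGGTCA or GAGGAA, a core motif of the Spi type of Ets factors such as *Spib*, on either strand.
Abcb11, chr2:69342567-69342866, minus strand: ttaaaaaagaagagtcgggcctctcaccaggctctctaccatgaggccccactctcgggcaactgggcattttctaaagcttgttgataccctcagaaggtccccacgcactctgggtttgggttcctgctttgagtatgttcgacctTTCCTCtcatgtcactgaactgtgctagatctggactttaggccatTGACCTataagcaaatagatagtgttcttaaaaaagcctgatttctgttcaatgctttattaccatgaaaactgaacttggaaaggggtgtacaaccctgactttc
Abcc2, chr19:43782058-43782357, plus strand: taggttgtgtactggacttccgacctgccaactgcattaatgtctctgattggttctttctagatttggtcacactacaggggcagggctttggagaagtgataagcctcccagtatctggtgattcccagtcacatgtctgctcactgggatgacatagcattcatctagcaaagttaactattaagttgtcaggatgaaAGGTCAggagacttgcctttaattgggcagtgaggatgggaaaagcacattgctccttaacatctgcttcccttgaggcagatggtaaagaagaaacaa
The match of AGGTCA began at position -56 in *Abcb11*, where it is read on the opposite strand, and at -49 in *Abcc2*, and that of GAGGAA at -102 in *Abcb11*, also on the opposite strand. GENCODE M21, the source of the gene positions, starts *Abcc2* at 43782192, before its match, so in that annotation the match lies inside the gene. Such a window was found for 38 of the 50 genes. AGGTCA on either strand was in 5 of the 38 (13.2%) and in 16% of 27025 promoters of the same length, GAGGAA in 17 (44.7%) and in 28.3% of all. The other carriers of AGGTCA were *Abcc10*, *Abcb6* and *Abcg2*, with log2 fold changes of 1.13, 0.44 and -0.53, and *Abcg2* held it at -212 and -121. The inverted repeat of AGGTCA with 1 base between the copies, which contains the hexamer, was in 0 of the 38 and in 0.0111% of all, the NF-κB consensus in 2 (5.26%) and in 8.18% of all, TATAAA in 6 (15.8%) and in 14.2% of all, and GGGCGG in 17 (44.7%) and in 35.9% of all. These matches describe the letters of the window and were not tested.

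The protein-coding genes within 250 kb of *Abcb11* were examined as well, and 3 of the 6 were higher in the cKO-labelled libraries at an unadjusted p of 0.05, beside 5.27% of all genes tested. Their adjusted p in edgeR was 0.541 for *Cers6* and *Nostrin* and 0.580 for *Dhrs9*. In DESeq2 only *Cers6* passed an adjusted p of 0.05 (0.0192). *Dhrs9*, which encodes a dehydrogenase of retinoids and steroids 37829 bases from *Abcb11*, had 100 and 45 counts in the WT libraries against 255 and 250 in the other group (log2 fold change 1.86, standard error 0.74). *Cers6*, a ceramide synthase gene listed in the files under the older symbol *Lass6*, had 2139 and 2642 counts against 7079 and 4474 (1.33, standard error 0.33). *Nostrin*, which encodes a regulator of endothelial nitric oxide synthase, had 8685 and 8689 counts against 12396 and 14631 (0.69, standard error 0.17). The nearest gene, *G6pc2*, which encodes a glucose-6-phosphatase subunit of islets 10441 bases away, had 96 and 98 counts against 37 and 74 (-0.77, standard error 0.97). *Spc25*, a kinetochore gene, and *Lrp2*, which encodes megalin, stood at -0.55 and 0.78 on the log2 scale (standard errors 0.45 and 0.63), neither past the unadjusted p. None of the neighbours had a fold change near that of *Abcb11*.

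**Figure D3:**
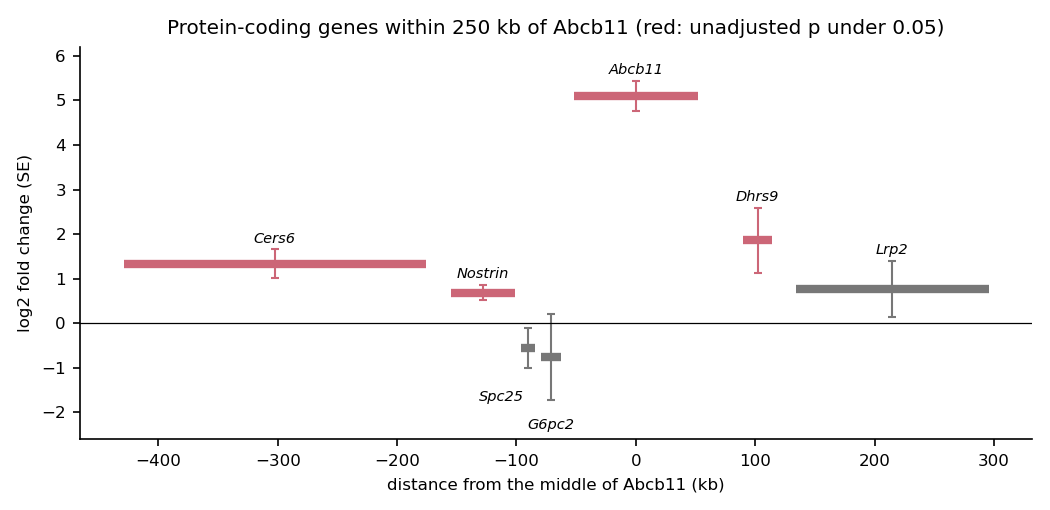
Log2 fold change (cKO-labelled libraries against WT, bar: standard error) of the protein-coding genes within 250 kb of *Abcb11*, drawn at their distance from its middle in kb; the length of each bar is the length of the gene and red marks an unadjusted p under 0.05. *Cers6*, *Nostrin* and *Dhrs9* were higher and *Abcb11* stands above them at 5.10.

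*Abcc2*, which exports bilirubin and other conjugates at apical membranes, had 313 and 259 counts in the WT libraries against 627 and 576 in the cKO-labelled libraries. It rose from 4.43 ± 0.503 to 9.68 ± 0.996 CPM (SD, n = 2 each; log2 fold change 1.13, standard error 0.38, unadjusted p = 0.0287 and adjusted p = 0.548 from edgeR). *Abcb4*, which moves phosphatidylcholine into bile, had 500 and 301 counts in the WT libraries against 268 and 78 in the other group, without overlap between the groups but with a large error (-1.13, standard error 0.75). Leaving out *Sirt6* cKO 2 gave -0.49, and leaving out *Sirt6* cKO 1 gave -2.34, past the unadjusted p. *Abcg5* and *Abcg8* encode the subunits of 1 sterol exporter and lie head to head on chromosome 17, where their exons overlap by 82 bases on opposite strands. Their levels differed widely in these cells. *Abcg5* stood at 29.8 and 33.5 TPM in WT and 16.9 and 23.1 TPM in the cKO-labelled libraries, and *Abcg8* at 0.823 and 0.707 TPM and 0.826 and 0.802 TPM. The TPM ratio of *Abcg5* to *Abcg8* was thus 36.2 and 47.4 in WT and 20.4 and 28.8 in the other group. *Abcg5* lay below WT in both libraries (log2 fold change -0.65, standard error 0.29) and did not pass in edgeR (adjusted p = 0.616), but passed the unadjusted p in DESeq2 (adjusted p = 0.446), while *Abcg8* stood at 0.098 (standard error 0.88). Of the 5 genes of the group, 2 were higher at the unadjusted p, beside 5.27% of all genes tested, and the median log2 fold change was 0.10.

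The exporters of drugs and conjugates held 3 further genes that were higher, all of subfamily C, among 11 genes with a median log2 fold change of 0.17. These 3 of 11 stand beside 5.27% of all genes tested. *Abcc1*, known for export of leukotriene C4, had 5439 and 7199 counts in the WT libraries against 10569 and 9923 in the cKO-labelled libraries. It rose from 98.1 ± 21.2 to 165 ± 14.4 CPM (SD, n = 2 each; log2 fold change 0.75, standard error 0.23, adjusted p = 0.541 from edgeR), a difference larger than the spread between replicates. *Abcc5*, which exports organic anions and nucleotide analogs, had 2763 and 2423 counts against 4266 and 3761 (0.69, standard error 0.23). *Abcc10*, a drug exporter, had 527 and 491 counts against 1407 and 726, so that its 2 cKO-labelled replicates differed 2.06-fold (1.13, standard error 0.44). Without *Sirt6* cKO 1 the value for *Abcc10* was 0.52, less than that with all libraries by more than 1.5 times, and without that library *Abcc1* and *Abcc5* stood at 0.66 and 0.55.

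The P-glycoproteins, encoded in the mouse by *Abcb1a* and *Abcb1b*, differed from each other in their values. *Abcb1b* had 782 and 525 counts in the WT libraries against 944 and 1466 in the cKO-labelled libraries, without overlap in CPM (log2 fold change 0.93, standard error 0.37, adjusted p = 0.584 from edgeR), and it was past the unadjusted p in DESeq2 and, in edgeR, without WT 1. *Abcb1a* had 1685 and 989 counts against 1043 and 1761 and overlapped (0.12, standard error 0.40). The TPM ratio of *Abcb1b* to *Abcb1a* was 0.532 and 0.608 in WT and 1.04 and 0.953 in the other group. The difference between their fold changes was not tested, and 18.0% of the 50-base words of *Abcb1b* also occur in *Abcb1a*, so that reads of these stretches may have been assigned to either gene. *Abcg2*, the breast cancer resistance protein, had 2700 and 2083 counts in the WT libraries against 1127 and 2085 in the other group (-0.53, standard error 0.36), and the value was -0.18 with *Sirt6* cKO 1 left out and -1.001 with *Sirt6* cKO 2 left out. *Abcc12* lay at -1.72 (standard error 1.01), with 406 counts in WT 2 and between 64 and 77 in the other libraries, and without WT 2 its value was 0.060, while without WT 1 it was -2.52 and past the unadjusted p. *Abcc3*, *Abcc4*, *Abcc6* and *Abcb5* lay between -0.58 and 0.35 and their groups overlapped.

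**Figure D4:**
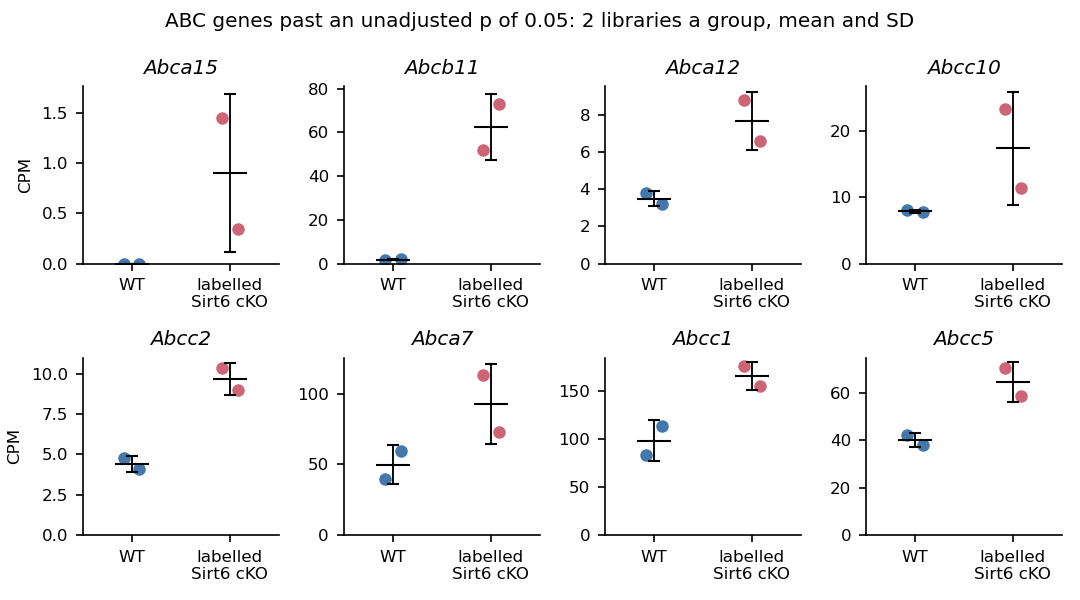
CPM of the 8 ABC genes with an unadjusted p under 0.05, with 2 libraries as points in each group and the mean and SD in black; each panel has its own axis from 0. In each of the 8 genes both cKO-labelled libraries lie above both WT libraries, and the 2 replicates of *Abca15* and *Abcc10* lie farthest apart.

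Among 10 transporters of lipids, 2 were higher and 0 were lower at the unadjusted p, beside 5.27% and 3.32% of all genes tested. The median log2 fold change was 0.27. *Abca7*, known for phospholipid export and phagocytosis, had 2610 and 3782 counts in the WT libraries against 6820 and 4673 in the cKO-labelled libraries. It rose from 49.7 ± 13.8 to 92.9 ± 28.4 CPM (SD, n = 2 each; log2 fold change 0.90, standard error 0.33), and its value fell to 0.56 without *Sirt6* cKO 1. *Abca12*, which loads lipids into the lamellar granules of keratinocytes, had 247 and 205 counts against 531 and 423 (1.14, standard error 0.44). *Abca5* and *Abca4* were also above WT in both libraries (0.91 and 0.88, standard errors 0.43 and 0.62), neither past the unadjusted p in edgeR. The cholesterol exporters *Abca1* and *Abcg1*, which are known to be abundant in macrophages, differed by less than their errors (-0.08 and -0.16, standard errors 0.29 and 0.22). The value of *Abcg1* was 0.024 without *Sirt6* cKO 2. *Abca2* lay at -0.24 (standard error 0.32) and at 0.050 without WT 2. *Abca3*, which fills the lamellar bodies of alveolar cells with surfactant lipid, held 2037 counts in WT 1 and 4680 in WT 2, so its replicates differed more than its groups (0.28, standard error 0.43).

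None of the 9 genes of organelles passed the unadjusted p in edgeR (0 genes), beside 8.58% of all genes tested, and DESeq2 passed 1, *Abcb10*. *Abcd2*, a peroxisomal importer of fatty acids, had the lowest log2 fold change of the group, -0.66 (standard error 0.53), which was -0.095 without WT 2 and -1.08 without WT 1. *Abcb10*, a protein of the inner mitochondrial membrane, had 1043 and 1597 counts in the WT libraries against 1890 and 2470 in the cKO-labelled libraries (0.77, standard error 0.33). *Abcb9*, which carries peptides into lysosomes, had 1703 and 1773 counts against 1309 and 897 and lay below WT in both libraries (-0.59, standard error 0.33). *Abcb8* (0.13, standard error 0.28) and *Abcd4* (-0.11, standard error 0.35), which takes part in the lysosomal handling of cobalamin, were close to 0. The counts of *Abcb6* are uncertain, because 90.3% of its 50-base words occur in the overlapping gene *Gm29253*.

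The 4 soluble members, which act on ribosomes and translation, had high counts and small standard errors, from 0.18 to 0.23. *Abce1* had 10723 and 8377 counts in the WT libraries against 10787 and 10906 in the cKO-labelled libraries (log2 fold change 0.24, standard error 0.19). *Abcf3* had 6878 and 6881 counts against 5975 and 6534 (-0.09, standard error 0.18). *Abcf1* and *Abcf2* lay at 0.22 and 0.07 (standard errors 0.22 and 0.23), and *Abcf2* turned to -0.0096 with upper quartile scaling and -0.020 with library size alone. None of the 4 passed an unadjusted p of 0.05 in edgeR or DESeq2 (0 genes), beside 8.58% of all genes tested in edgeR.

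Both regulators of ATP-sensitive potassium channels were expressed, at different levels. *Abcc8*, the sulfonylurea receptor of pancreatic beta cells, had 3389 and 3210 counts in the WT libraries against 2931 and 3565 in the cKO-labelled libraries (log2 fold change 0.03, standard error 0.22, and -0.052 and -0.061 with upper quartile scaling and library size alone). *Abcc9*, the receptor of muscle channels, had 49 and 111 counts against 156 and 199 (1.19, standard error 0.81), and stood at 0.68 without WT 1 and 1.92 without WT 2. *Kcnj11*, the pore subunit that assembles with *Abcc8* in beta cells, fell from 6.52 ± 0.404 to 1.59 ± 0.886 CPM (SD, n = 2 each; -2.04, standard error 0.62, unadjusted p = 0.0201), so the 2 partners had different values in the same libraries.

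The remaining 9 genes are rodent genes and genes known from testis (*Abca14*, *Abca15*, *Abca16*, *Abca17* and *Abcg3*) and a cluster on chromosome 11 (*Abca6*, *Abca8a*, *Abca8b* and *Abca9*), and *Abcg3* was the only one with a mean above 2 TPM. *Abca15* had 0 counts in both WT libraries and 88 and 22 in the cKO-labelled libraries. The cKO-labelled libraries held 1.46 and 0.343 CPM, a 4.25-fold difference, so their mean rests mainly on *Sirt6* cKO 1. Each WT library was set to 3 counts, a limit that covers counting error only. By the mean of the other group, *Abca15* was then at least 19.4-fold higher (unadjusted p = 0.0177 from edgeR). Without *Sirt6* cKO 1 its unadjusted p was 0.195. Its neighbours in a stretch of 341 kb on chromosome 7 were *Abca14*, with 27 and 36 counts against 7 and 116, and *Abca16*, with 29 and 0 counts against 6 and 12, and neither passed. In the cluster on chromosome 11, *Abca6* had 40 and 0 counts against 73 and 134 and passed the unadjusted p only without WT 1, *Abca8b* 164 and 0 against 4 and 52 and *Abca9* 128 and 69 against 0 and 142. In *Abca8b* and *Abca9* counts thus went from 0 to over 100 within a group, and the standard errors of these 3 genes were 2.04 to 2.47 on the log2 scale.

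Replicates of the ABC genes differed about as much as those of other genes. The higher of the 2 replicates exceeded the lower more than 2-fold in 11 of 50 genes (22%) in WT and in 10 (20%) in the cKO-labelled libraries, beside 24.9% and 22.02% of all genes tested. Of the 16 genes with a mean under 2 TPM, 13 differed this much in at least 1 group, against 5 of the 34 others. The median standard error was 1.08 in the former and 0.33 in the latter, and 2 and 6 of them passed the unadjusted p.

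**Figure D5:**
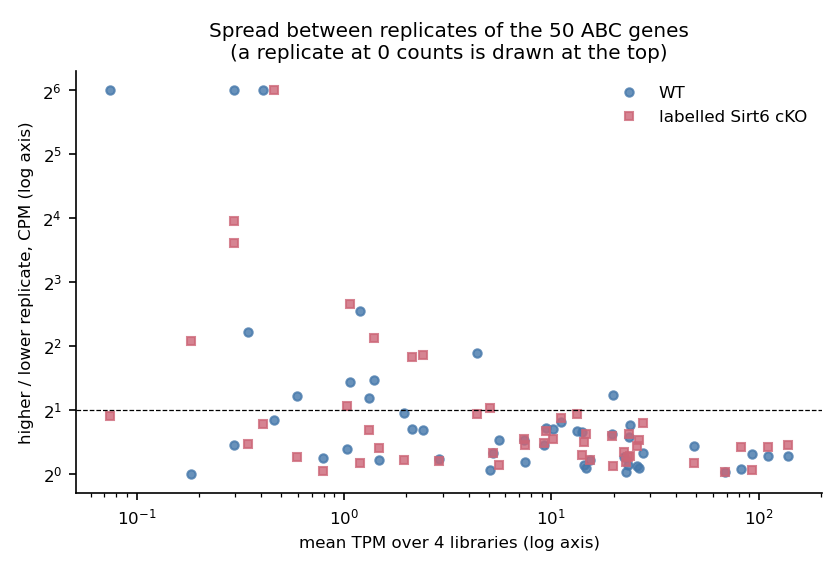
Ratio of the higher to the lower replicate in CPM (log axis) against the mean TPM over 4 libraries (log axis) for the 50 ABC genes, with circles for WT and squares for the cKO-labelled libraries; the dashed line is a ratio of 2. The ratios above 2 gather below a mean of 2 TPM, and a replicate at 0 counts is drawn at the top.

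Genes that work with ABC proteins were examined in lists. Their counts stand beside 5.27% of all genes higher and 3.32% lower at the unadjusted p in edgeR, and 5.8% and 4.38% in DESeq2. At an adjusted p of 0.05, DESeq2 passed 1.83% of all genes. Of 17 genes of bile acid synthesis and transport found in the table, 15 were tested and 3 were higher and 0 lower at the unadjusted p, with a median log2 fold change of -0.11 and 9 of the 15 below 0. DESeq2 called 3 higher and 1 lower, *Slco1b2*, an importer of bile acids in hepatocytes, which stood at -2.05 (standard error 0.82) in edgeR with its groups apart. *Slco1a4*, an organic anion importer, stood at -1.57 (standard error 0.74). *Slc10a1*, the basolateral importer of bile salts in hepatocytes, had 51 and 39 counts in the WT libraries against 186 and 253 in the cKO-labelled libraries (2.33, standard error 0.75). *Atp8b1*, a lipid flippase of the canalicular membrane, rose from 3.69 ± 0.573 to 9.69 ± 0.492 CPM (SD, n = 2 each; 1.39, standard error 0.39), and *Baat*, which conjugates bile acids, from 4.44 ± 0.229 to 11.2 ± 3.46 CPM (SD, n = 2 each; 1.34, standard error 0.41). Of 16 nuclear receptors and other regulators of lipid genes tested, 3 were higher and 0 lower, with a median of -0.05. *Srebf2*, the master regulator of cholesterol synthesis, rose from 104 ± 9.54 to 208 ± 61.3 CPM (SD, n = 2 each; 1.002, standard error 0.26) and *Srebf1* rose by a log2 fold change of 0.86. *Nr1h4*, the bile acid receptor FXR that is known to drive *Abcb11* in liver, had 9 counts in WT 1 and 0 in the other libraries and was not tested. Of 21 genes of lipoprotein and sterol handling, 1 was higher and 1 was lower, with a median of -0.12, and the lower gene was *Apoe*, which encodes an apolipoprotein abundant in macrophages (-1.67, standard error 0.31). Among 22 partners of single ABC proteins, 0 were higher and 2 were lower, *Kcnj11* and *Ltc4s*, the synthase of leukotriene C4 (-1.56, standard error 0.62), with a median of 0.0052. Of 5 relatives in peptide loading, 0 passed, with a median of 0.17. None of the genes in these lists passed an adjusted p of 0.05 in edgeR (0 genes), and DESeq2 passed 1 regulator, *Srebf2* (adjusted p = 0.0465), and 1 higher and 1 lower gene of lipoprotein and sterol handling, the latter *Apoe*.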

How the data were processed

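mTECs were measured by RNA-seq in 2 WT libraries and 2 cKO-labelled libraries. Per the study's methods and processing notes, the authors used Trim Galore for trimming, HISAT2 2.1.0 for alignment (mm10) and StringTie 1.3.3 for quantification, and tested with DESeq2, whose results are not used here; the annotation and the use of strand are not given in the sources used here. The deposited counts are whole numbers without normalization. The deposited TPM values, made by the authors with StringTie, sum to 1000000 over the genes of a library, and 1 line per TPM file that names no gene and holds the total was left out.

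Counts were tested with edgeR 4.0.16 in R 4.3.3 (TMM factors, filterByExpr with min.count 10 and min.total.count 15, glmQLFit, glmQLFTest), on all 18547 genes that passed the filter, with Benjamini-Hochberg adjustment over these genes and a threshold of 0.05. The biological coefficient of variation was 0.557. The standard error is the log2 fold change divided by the square root of the F statistic. CPM values use the TMM factors. With 2 libraries against 2, the smallest p of an exact permutation test is 0.333. For a fold against a group at 0, each of its libraries was given 3 counts.

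The members, the role groups and the gene lists were chosen with earlier results of these data known. Values are given for *Abcb11*, genes past the unadjusted p, the 10 genes with the highest mean TPM, the extremes of each role group, both P-glycoproteins, both sterol exporter subunits, *Sirt6*, the neighbours of *Abcb11* within 250 kb and list genes past the unadjusted p. The values of a few genes that met this rule are not reported here. Further named genes were picked with their values in view. Positions, exon overlaps and shared 50-base words come from GENCODE M21 on GRCm38, promoters from RefSeq on GRCm38.p6. Alternatives were DESeq2 1.42.0, RLE, upper quartile and library size scaling, no filter, a filter of TPM over 0.1 in all 4 libraries, the replicate number as a block, limma 3.58.1 on log2(TPM + 1) and log2(TPM + 0.1), and fits without any 1 library, where the lone library of a group is assumed to vary like the other group. The procedure was tested on simulated data.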

Additional observations from a re-analysis of the deposited data

How the results depend on the processing

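The log2 fold change of *Abcb11* kept its direction and an unadjusted p under 0.05 in all 13 alternatives, from 3.97 with limma on log2(TPM + 1) to 5.33 without *Sirt6* cKO 1. The count of ABC genes higher at the unadjusted p was 8, and it was 5 with library size alone, 4 with the replicate block, 4 with limma for a pseudocount of 1 and 4 for a pseudocount of 0.1, and between 1 and 7 with a library left out. The count of lower genes was 0, beside 3.32% of all genes tested. It was 1 with DESeq2 and with library size alone (*Abcg5* in both), beside 4.38% and 4.52% of all genes. The median log2 fold change of 0.15 was 0.068 with upper quartile scaling and 0.058 with library size alone, and lay between 0.10 and 0.26 with a library left out. Over all genes, 977 were higher and 615 lower, and 421 and 314 without *Sirt6* cKO 1; at an adjusted p of 0.05 edgeR passed 1 gene and DESeq2 354. The deviations of same-numbered libraries from their group means had a correlation of -0.051 over genes. No source used here ties same-numbered libraries to a shared animal or batch, and whether they share 1 was not tested. The block kept 4 of the 8 genes past the unadjusted p.

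Some values near 0 or at low counts changed sign, and the cause was not tested. With the replicate block *Abca16* stood at 1.16 and *Abca8b* at 0.44. With upper quartile scaling *Abcc8* stood at -0.052 and *Abcf2* at -0.0096, and with library size alone at -0.061 and -0.020. With a library left out, the values ran from -1.61 to 6.18 for *Abca16*, -4.20 to 7.79 for *Abca8b*, -0.51 to 0.050 for *Abca2*, -0.27 to 0.50 for *Abcb1a*, -0.18 to 0.37 for *Abcb8*, -2.52 to 0.060 for *Abcc12*, -0.090 to 0.12 for *Abcc8*, -0.47 to 0.33 for *Abcd4*, -0.0045 to 0.41 for *Abcf1*, -0.19 to 0.28 for *Abcf2*, -0.39 to 0.024 for *Abcg1* and -0.024 to 0.21 for *Abcg8*.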

Other observations

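The ABC relatives whose symbols lie outside the rule were expressed without a detected difference. *Tap1* and *Tap2*, the peptide transporter subunits that supply MHC class I molecules, stood at 199 and 243 TPM and 342 and 388 TPM in WT and at 219 and 259 TPM and 296 and 373 TPM in the cKO-labelled libraries, above every gene with an *Abca* to *Abcg* symbol. Their log2 fold changes were 0.13 and -0.12 (standard error 0.18 each). *Cftr*, the chloride channel of epithelia, had 440 counts in WT 1 and 1309 in WT 2 against 1220 and 812, so its replicates differed more than its groups (0.27, standard error 0.59).

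ABC genes lie in 9 groups of neighbours within 250 kb of each other, 23 genes in all. The values of neighbours are given side by side, and their differences were not tested. *Abcb1a*, *Abcb1b* and *Abcb4*, within 299 kb on chromosome 5, stood at 0.12, 0.93 and -1.13. *Abca5*, at one end of the cluster on chromosome 11, stood at 0.91 (standard error 0.43). *Abca6* next to it stood at 2.42 and *Abca8b* at the other end at -1.51, with standard errors of 2.04 and 2.47 and 0 counts in WT 2. *Abcc5*, which was higher, stood at 0.69 beside *Abcf3* at -0.09 on chromosome 16.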
